A study of Bos taurus with 12 samples.

Results

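The genes described here build the fibrous matrix of the bovine endometrium, the lining of the uterus. They are the collagen chains that carry a single gene symbol in the array's annotation, together with 33 proteoglycans, collagen-processing proteins, glycoproteins and proteins of matrix-producing cells. In all, 56 such genes had a probe set, of 9155 named genes on the array, and 23 of the 56 were collagen chains. A gene was kept when a probe set exceeded 4 on the log2 scale on at least 3 of the 12 arrays, and each gene was represented by its kept probe set with the highest mean. This kept 32 genes (9 collagen chains and 23 others) and left out 24, of which 19 never exceeded 4 on any array. COL5A2 and FMOD lay just under this limit, with third-highest values of 3.78 and 3.88, while COL6A1 and NID1 lay just above it at 4.79 and 4.96.

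Simmental heifers were biopsied on day 7 or day 14 of the oestrous cycle that preceded the transfer of an embryo, from which a piece had also been taken. The groups CDd7 and CDd14 hold endometrium of heifers that went on to deliver a calf. The groups NPd7 and NPd14 hold endometrium of heifers that came back into heat without a pregnancy. Each group has 3 arrays, each hybridised with RNA of a pool, so the p-values measure the spread between pools. The sources used here do not give the heifers' age, how many heifers made up a pool, or whether the day 7 and day 14 pools share heifers. No treatment separated the groups, since the outcome was known only afterwards.

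Fibril-forming collagens such as types I and III are secreted by stromal fibroblasts as procollagens, trimmed at their ends and assembled into fibrils that give the tissue its strength. Small leucine-rich proteoglycans and fibril-associated collagens coat these fibrils and regulate their spacing. Type IV collagen instead forms a sheet-like network with laminins and nidogen in the basement membrane under epithelium and around vessels. In the uterus this matrix is remodelled over the cycle and during implantation.

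Array medians lay between 4.89 and 5.06 (log2), and arrays correlated across probe sets at 0.921 to 0.988 within groups and at 0.862 to 0.981 between groups. Of the markers looked at, 10 of 11 epithelial and 7 of 8 stromal fibroblast markers passed the filter. KRT8 and COL1A1 were the ones that did not. Of all 9155 named genes on the array 6781 passed, so passing does not by itself identify the tissue. Of the 56 matrix genes described here 32 passed. The gap between 3' and 5' probe sets of GAPDH, cyclophilin and EF1A, which reads RNA integrity and labelling, was 1.65 ± 0.20 (log2, SD, n = 3) in CDd7 against 1.94 ± 0.19 in NPd7. At day 14 it was 1.97 ± 0.11 in CDd14 against 2.32 ± 0.17 in NPd14. It thus differed between the groups compared below, and its part in the results was not tested beyond the fit with it as a covariate.

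Among the genes that did not pass the filter were the fibril-forming chains COL1A1, COL2A1, COL5A2, COL5A3, COL11A1 and COL11A2. The basement membrane chain COL4A3 and COL6A2, COL9A1, COL10A1, COL13A1, COL17A1, COL18A1 and COL26A1 did not pass either. The same held for ASPN, BGN and FMOD among the proteoglycans, for the cross-linking enzyme LOX, for ELN, FBLN5, POSTN, HSPG2 and LAMA4, and for the receptor PDGFRB. Of the 32 genes kept, COL4A4, COL6A1, COL15A1 and NID1 had a group mean under 4, where the background correction sets the level and a fold change depends on that floor. COL4A4 passed the filter only through CDd7, COL6A1 only through NPd7 and COL15A1 only through NPd7 and NPd14. Their differences between groups are therefore partly fixed by the filter.

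**Figure D1:**
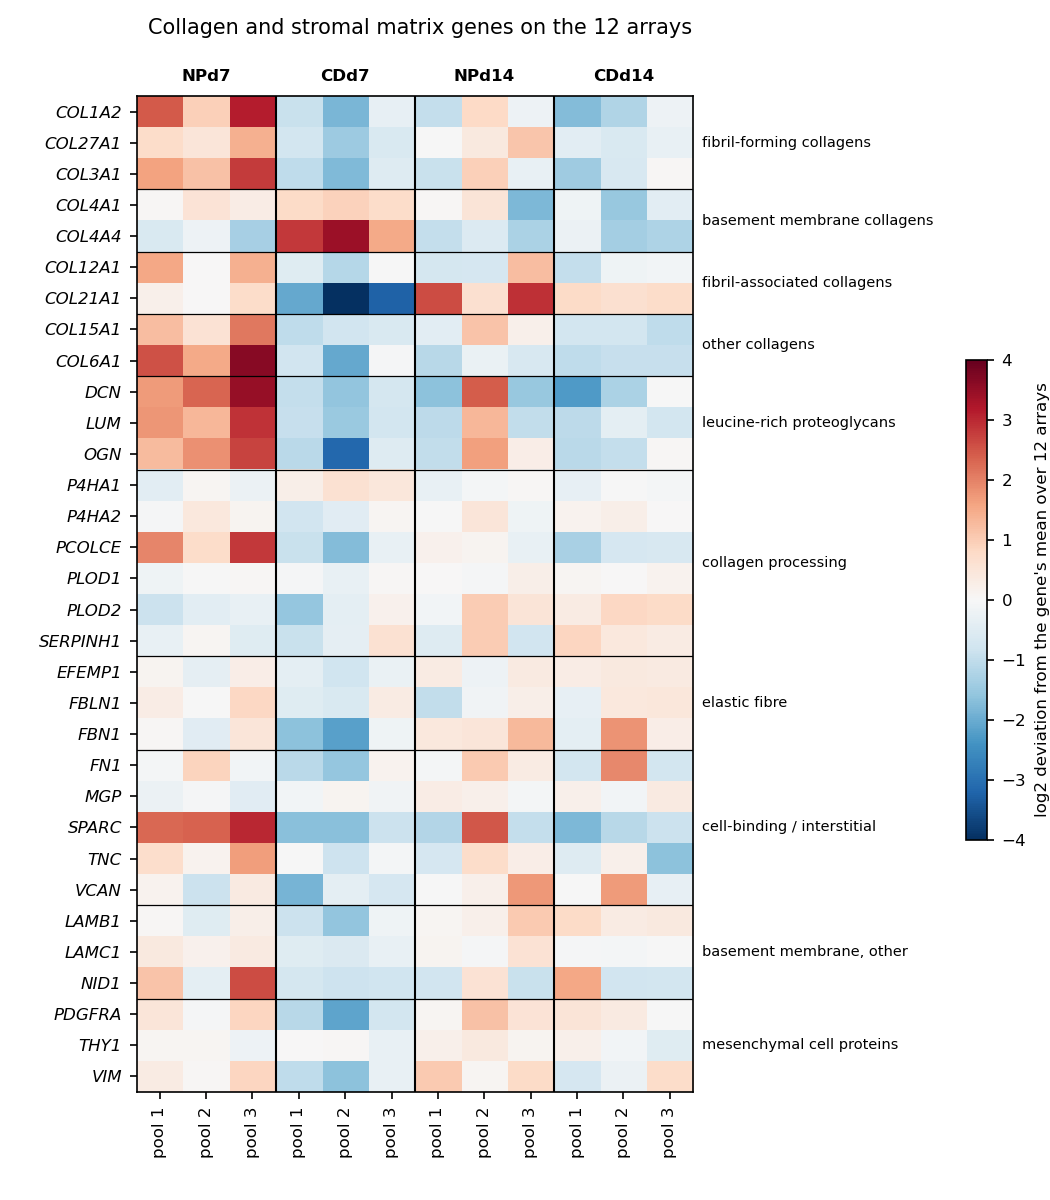
Log2 deviation of each of the 32 kept genes (rows, in classes) from its own mean over the 12 arrays, with 1 column per pool and red above, blue below that mean. Most fibril, proteoglycan and SPARC rows are red in the 3 NPd7 columns and blue in the 3 CDd7 columns, COL4A4 shows the opposite, and NPd14 pool 2 stands out from the other NPd14 pools for DCN, SPARC, LUM and OGN.

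The first comparison asks whether matrix transcripts already differed at day 7 with the later outcome. At day 7, 12 of the 32 kept genes fell and 1 rose in calf delivery against no pregnancy, and 19 did not pass the threshold (limma, adjusted p under 0.05 over all 13449 kept probe sets). Of all 6781 genes, 2.02% fell and 1.46% rose. The median log2 difference was -1.24, beside -0.01 over all genes. The NPd7 and CDd7 values did not overlap for 17 genes lower in CDd7 and for 3 higher, where 18.6% and 16.7% of all genes were so placed. Of the 9 collagen chains 6 fell and 1 rose (median -2.11), and of the 23 other genes 6 fell (median -0.85). These counts include genes with a group mean under 4. Of the 28 genes with every group mean at 4 or above, 10 fell and 0 rose (median -1.11).

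All 3 kept fibril-forming chains fell. COL1A2, the second chain of type I collagen, read 11.39, 9.88 and 12.09 in the NPd7 pools, 8.04, 7.12 and 8.60 in CDd7, 7.99, 9.75 and 8.75 in NPd14 and 7.20, 7.74 and 8.73 in CDd14 (log2). NPd7 was the high group, and no CDd7 pool reached it. The day 7 difference was -3.20 ± 0.66 (log2, SE), with a 95% interval from -4.66 to -1.74 (limma adjusted p = 0.0382). COL3A1, which forms type III fibrils in distensible tissues, read 11.88, 11.43 and 13.06 in NPd7, 9.27, 8.50 and 9.76 in CDd7, 9.40, 11.24 and 9.99 in NPd14 and 8.86, 9.63 and 10.31 in CDd14. Its lowest NPd7 pool lay above every array of the other groups, and it fell by 2.95 ± 0.58 on the log2 scale (limma adjusted p = 0.0352). COL27A1, a fibril-forming chain best known from cartilage, read 9.71, 9.47 and 10.39 in NPd7 and 8.23, 7.51 and 8.36 in CDd7, then 8.95, 9.37 and 10.09 in NPd14 and 8.56, 8.35 and 8.68 in CDd14. It fell 3.54-fold at day 7 (limma adjusted p = 0.0326), and its CD pools lay below its NP pools on both days. A further kept probe set of COL3A1 fell as well (-3.29, adjusted p = 0.0447), and that of COL1A2 had a larger difference that missed the threshold (-3.98, adjusted p = 0.0622).

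The leucine-rich proteoglycans LUM and OGN, the glycoprotein SPARC and the procollagen-processing protein PCOLCE also fell. LUM (lumican), a leucine-rich proteoglycan, read 8.02, 7.60 and 9.16 in NPd7, 5.34, 4.78 and 5.52 in CDd7, 5.20, 7.59 and 5.27 in NPd14 and 5.21, 5.87 and 5.54 in CDd14. It fell 8.25-fold at day 7 (limma adjusted p = 0.0368), and OGN (osteoglycin), of the same family, fell 11.4-fold (adjusted p = 0.0431). DCN (decorin), the third proteoglycan kept, read 7.92, 8.54 and 9.71 in NPd7 and 5.26, 4.64 and 5.52 in CDd7. In NPd14 it read 4.59, 8.64 and 4.70, and in CDd14 3.97, 4.97 and 6.19. Its day 7 difference was as large (-3.58 ± 1.0) but missed the threshold (limma adjusted p = 0.0637), with an SE that carries the spread of its NPd14 pools. Without NPd14 pool 2, the pool that widens this spread, it passed (limma adjusted p = 0.0233). Since leaving out that pool lowers the SE of DCN, this is no independent support for the difference. SPARC, a matrix glycoprotein that binds collagen and acts in its assembly, read 8.34, 8.39 and 9.04 in NPd7, 4.35, 4.35 and 5.17 in CDd7, 4.87, 8.51 and 5.08 in NPd14 and 4.25, 4.91 and 5.16 in CDd14. These values form a high and a low level with nothing between, and NPd14 pool 2 shares the high level with the NPd7 pools. SPARC fell by 3.96 ± 0.80 on the log2 scale (limma adjusted p = 0.0368). PCOLCE, which enhances removal of the procollagen end-piece, read 7.40, 6.19 and 8.28 in NPd7, 4.56, 3.72 and 5.16 in CDd7, 5.61, 5.55 and 5.16 in NPd14 and 4.16, 4.79 and 4.80 in CDd14. The high values were those of NPd7 alone, and PCOLCE fell 7.01-fold (limma adjusted p = 0.0287).

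**Figure D2:**
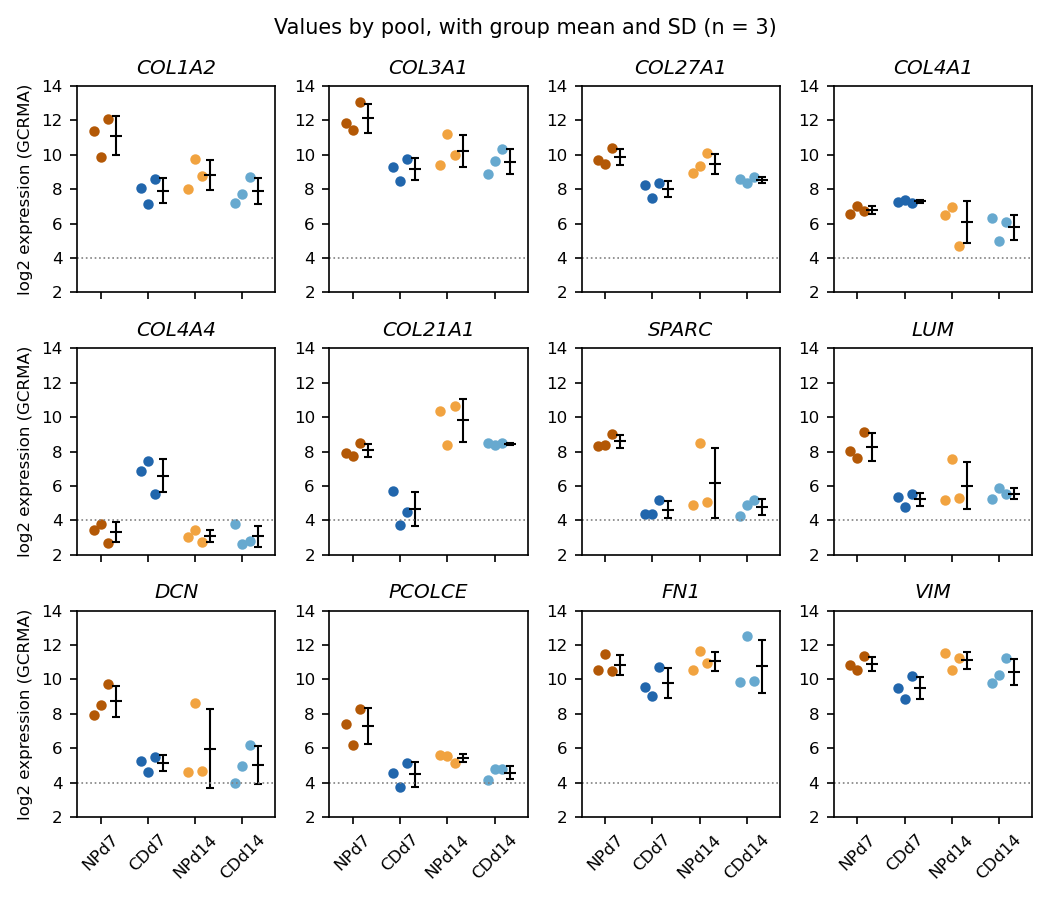
Log2 expression of 12 genes on every array (points, by group in the order NPd7, CDd7, NPd14, CDd14), with the group mean and SD (n = 3) as a bar beside the points and the filter at 4 as a dotted line. For COL1A2, COL3A1, SPARC, LUM and PCOLCE the 3 NPd7 points lie above all CDd7 points, COL4A4 exceeds the line in CDd7 alone, and FN1 overlaps between all groups.

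Of the collagens that are not part of classical fibrils, COL21A1, a fibril-associated chain, read 7.94, 7.76 and 8.49 in NPd7, 5.71, 3.75 and 4.51 in CDd7, 10.34, 8.39 and 10.67 in NPd14 and 8.51, 8.40 and 8.48 in CDd14. CDd7 was its low group and NPd14 held its 2 highest pools, and the day 7 fall was 10.6-fold (limma adjusted p = 0.0285). COL6A1, a chain of the beaded type VI microfibrils, read 5.83, 4.79 and 6.92 in NPd7, 2.53, 1.22 and 3.24 in CDd7, 2.18, 3.02 and 2.65 in NPd14 and 2.27, 2.38 and 2.38 in CDd14. All 9 arrays outside NPd7 were under 4, so its 11.4-fold fall (limma adjusted p = 0.0229) is measured against the floor. COL15A1, a collagen found next to basement membranes, fell from 5.84 ± 0.77 to 3.73 ± 0.20 (adjusted p = 0.0368), also into that range. COL12A1, which binds type I fibrils, was at 7.68 ± 0.85 in NPd7 and 6.14 ± 0.56 in CDd7 (difference -1.54, adjusted p = 0.116).

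Most genes of collagen modification and folding did not pass the threshold at day 7. Of 6 kept processing genes, PCOLCE fell and the median difference was -0.05. The lysyl hydroxylases PLOD1 and PLOD2 differed by -0.04 (95% interval -0.32 to 0.24) and -0.05 (-0.97 to 0.86), and the collagen chaperone SERPINH1 by 0.02 (-1.04 to 1.08). The other kept probe set of PLOD1 disagreed, with a value higher in CDd7 by 1.44 (0.50 to 2.39) that missed the threshold (adjusted p = 0.0705). The prolyl hydroxylase subunit P4HA1 read 10.03, 10.54 and 10.23 in NPd7 and 10.69, 11.06 and 10.92 in CDd7, without overlap. It was thus higher in CDd7, by 0.62 ± 0.17, and missed the threshold (limma adjusted p = 0.0596). P4HA2 differed the other way, by -0.54 (adjusted p = 0.161).

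Apart from SPARC, none of the kept interstitial and elastic-fibre proteins passed the threshold at day 7. FN1 (fibronectin) read 10.54, 11.50 and 10.49 in NPd7, 9.53, 9.05 and 10.75 in CDd7, 10.53, 11.67 and 10.95 in NPd14 and 9.87, 12.52 and 9.89 in CDd14. Its groups overlapped at day 7, and the difference of -1.07 ± 0.71 did not pass (limma adjusted p = 0.324). TNC (tenascin-C) differed by -1.14 (adjusted p = 0.184), the proteoglycan VCAN (versican) by -0.85 (0.391) and FBN1, the backbone of microfibrils, by -1.35 (0.171). The fibulins EFEMP1 and FBLN1 differed by -0.49 (0.156) and -0.62 (0.288). MGP, which inhibits matrix calcification, differed by 0.20 (0.428), and its 4 kept probe sets disagreed in sign.

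Among proteins of the matrix-producing cells, PDGFRA, the platelet-derived growth factor receptor of stromal fibroblasts, read 7.90, 7.36 and 8.26 in NPd7, 6.28, 5.31 and 6.69 in CDd7, 7.47, 8.58 and 7.95 in NPd14 and 7.92, 7.77 and 7.41 in CDd14. CDd7 alone was low, and PDGFRA fell 3.36-fold (limma adjusted p = 0.0432). VIM (vimentin), the intermediate filament of mesenchymal cells, read 10.82, 10.54 and 11.35 in NPd7, 9.48, 8.87 and 10.18 in CDd7, 11.54, 10.56 and 11.25 in NPd14 and 9.80, 10.25 and 11.24 in CDd14. Its day 7 difference of -1.40 ± 0.44 did not pass (limma adjusted p = 0.0783), although the groups did not overlap. The fibroblast surface protein THY1 differed by -0.05, with a 95% interval from -0.46 to 0.36. In tissue RNA, fewer cells of a type and less RNA per cell cannot be told apart.

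The day 7 calls depended on single pools. Without NPd7 pool 1, NPd7 pool 3 or CDd7 pool 2, 0 of the 32 genes passed (limma, while 17, 16 and 16 had an unadjusted p below 0.05). When CDd7 pool 1, CDd14 pool 1, CDd14 pool 2 or CDd14 pool 3 was left out, there were 5, 6, 5 and 2. With the 3' to 5' difference as a covariate 0 passed (smallest adjusted p = 0.236, 15 at an unadjusted p under 0.05), with the day 7 arrays alone 1, and without the filter 2. The differences themselves kept their direction with that covariate, for example -4.64 for SPARC, -3.14 for COL1A2, -2.34 for COL21A1 and 2.85 for COL4A4 (log2). Recounts of this kind, here and below, are given without the share of all genes called in the same fit. They cannot tell a change in these genes from a change over all genes.

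Markers of other cell types moved beside these genes, and their part in the result was not tested. The summed level of 10 of 11 epithelial markers lay between 16.02 and 16.11 in NPd7 and between 15.93 and 16.02 in CDd7 (log2), and 0 of the 10 passed (limma, 3 at an unadjusted p under 0.05). Of 9 smooth muscle markers only MYLK was kept, and ACTA2, CALD1, CNN1, DES, LMOD1, MYH11, SMTN and TAGLN were not. MYLK read 8.57 to 8.83 in NPd7 and 4.59 to 6.34 in CDd7 and fell 9.40-fold (limma adjusted p = 0.0368). The summed level of 8 of 9 leukocyte markers was 11.05 to 12.17 in NPd7 and 9.92 to 11.38 in CDd7, and 2 of them, LCK and CD8A, fell. GYPC, the only red cell marker kept of 4, fell 1.97-fold, from a range of 8.37 to 9.07 to one of 7.32 to 8.11. ALAS2, HBA and HBB did not pass the filter.

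**Figure D3:**
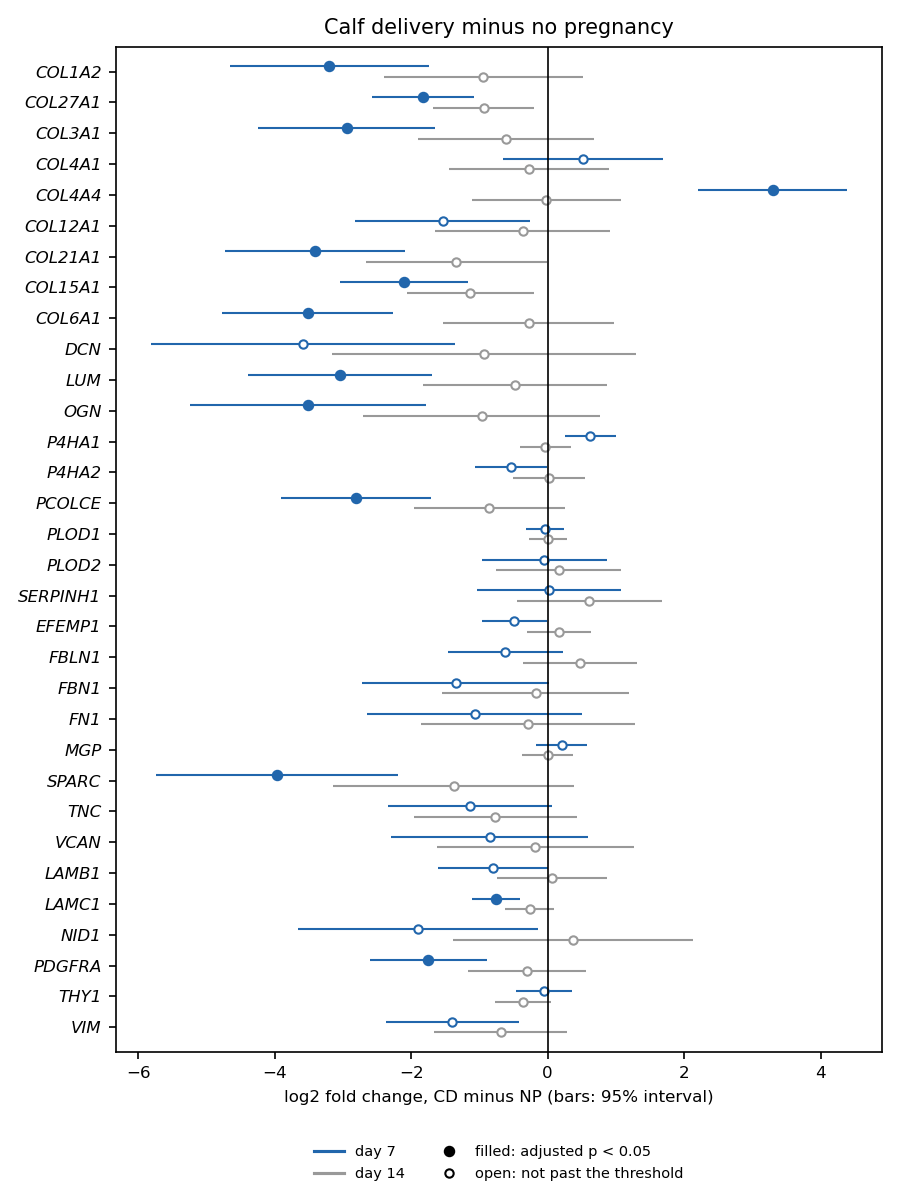
Log2 difference between calf delivery and no pregnancy for the 32 kept genes at day 7 (blue) and day 14 (grey), with 95% intervals from limma and filled points for an adjusted p under 0.05. At day 7, 12 filled points lie left of 0 and COL4A4 lies right of it, while 0 points are filled at day 14.

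The chains of the basement membrane did not follow those of the fibrils. COL4A1, present in nearly every basement membrane, read 6.53, 7.02 and 6.76 in NPd7, 7.26, 7.40 and 7.21 in CDd7, 6.52, 6.99 and 4.68 in NPd14 and 6.32, 4.98 and 6.06 in CDd14. The CDd7 pools were the highest, without overlap, but the day 7 difference of 0.52 (95% interval -0.66 to 1.69) did not pass (limma adjusted p = 0.528). COL4A4, a chain best known from the kidney filter, read 3.41, 3.81 and 2.68 in NPd7, 6.84, 7.42 and 5.53 in CDd7, 3.05, 3.46 and 2.74 in NPd14 and 3.77, 2.64 and 2.77 in CDd14. It exceeded 4 in CDd7 alone and rose by 3.30 ± 0.49 on the log2 scale, 9.85-fold from under the filter (limma adjusted p = 0.0219). Having passed the filter only through CDd7, it had to differ between these groups.

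The 3 fibril-forming and the 2 basement membrane chains were then set against each other on each array, as the difference of their mean deviations. This was 1.87, 0.69 and 2.98 in NPd7, -2.69, -3.85 and -1.62 in CDd7, -0.16, 0.74 and 1.75 in NPd14 and -0.99, 0.61 and 0.67 in CDd14 (log2). CDd7 held the lowest values, which lean on COL4A4: that chain was kept only because it was high in CDd7, and COL4A1 did not pass the threshold. The difference is therefore a description. For single pairs, the log2 ratio over COL4A1 was lower in CDd7 than in NPd7 by -3.72 for COL1A2, -3.46 for COL3A1 and -2.34 for COL27A1. Each of these 3 pairs, which share COL4A1, gave an exact permutation p = 0.1 (two-sided, adjusted p = 0.1 over 6 pairs). This is the smallest p that the permutation test allows for 3 against 3 arrays. In CDd7 each of the fibril-forming chains was lower and COL4A1 higher, both without overlap. The ratios therefore had to separate, and the test adds no support to those values. The other 3 pairs were ratios over COL4A4, which lay under 4 in NPd7, so their size is set by the floor and the filter and is not given.

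**Figure D4:**
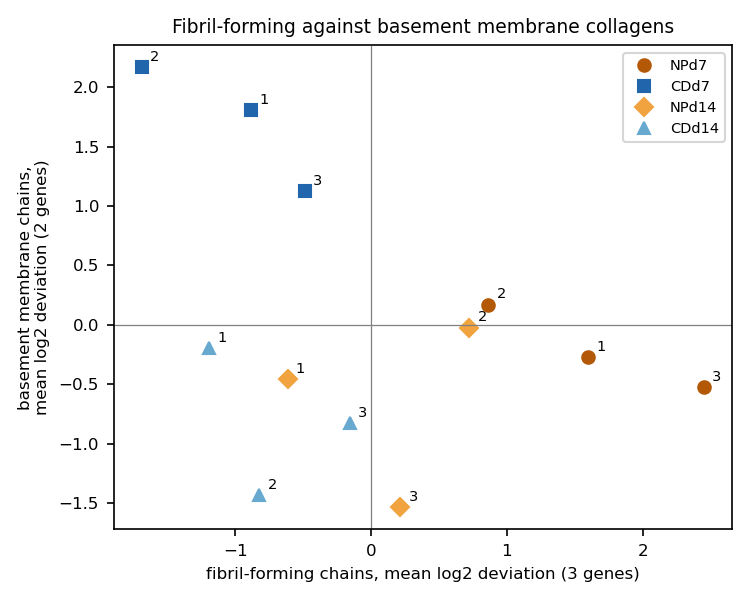
Mean log2 deviation of the 3 fibril-forming chains (horizontal axis) and of the 2 basement membrane chains (vertical axis) on each array, with symbols for the groups and the pool number beside each point. The 3 CDd7 pools lie at the upper left, the 3 NPd7 pools at the right, and the day 14 pools below or near 0 on the vertical axis.

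Other basement membrane proteins did not share the COL4A4 pattern. LAMC1, the gamma chain of most laminins, fell from 9.56 ± 0.13 in NPd7 to 8.80 ± 0.13 in CDd7, 1.69-fold (limma adjusted p = 0.0392). Its 2 other kept probe sets had differences of -0.02 and -0.65 (adjusted p = 0.904 and 0.125). LAMB1, a laminin beta chain, differed by -0.80 (adjusted p = 0.169) and NID1, which links laminin to type IV collagen, by -1.90 (0.144). The endothelial marker CLDN5, the only one of 9 kept, read 3.21 to 4.75 in NPd7, 5.78 to 7.21 in CDd7, 2.04 to 3.29 in NPd14 and 1.66 to 2.05 in CDd14. It rose 5.18-fold at day 7 (limma adjusted p = 0.0368), in the pools where COL4A4 was high, and its part in that result was not tested. CDH5, EGFL7, ENG, KDR, PECAM1, TEK, TIE1 and VWF did not pass the filter.

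At day 14, 0 of the 32 genes passed the threshold between the outcomes (limma, smallest adjusted p = 0.573, 3 at an unadjusted p under 0.05), where 0.0147% of all genes did. Values were lower in CDd14 for 23 of the 32 genes and for each of the 9 collagen chains, with medians of -0.28 and -0.61, beside 0.03 over all genes. The groups did not overlap for COL27A1 (-0.94 ± 0.33, adjusted p = 0.573), COL15A1 (-1.13 ± 0.42, 0.583) and PCOLCE (-0.86 ± 0.50, 0.768), all lower in CDd14, where 5.72% of all genes were so placed. The 95% intervals reached from -2.40 to 0.52 for COL1A2, from -1.91 to 0.68 for COL3A1 and from -3.15 to 0.39 for SPARC, so differences of several fold were not excluded.

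Between the days in calf delivery, 5 of the 32 genes rose to day 14 and 2 fell, while 24.1% of all genes were called in either direction (9.87% higher, 14.2% lower). The share called was thus near that of all genes. None of the fibril-forming chains and leucine-rich proteoglycans passed. COL1A2 differed by -0.03 (95% interval -1.49 to 1.43), COL3A1 by 0.42 (-0.87 to 1.71), LUM by 0.33 (-1.02 to 1.68) and SPARC by 0.15 (-1.62 to 1.92). The genes that passed were of other classes. COL21A1 rose by 3.81 ± 0.60 on the log2 scale, 14.0-fold (limma adjusted p = 0.00389), and PDGFRA rose 3.04-fold (0.0173). LAMB1 read 5.48, 4.76 and 6.16 in CDd7 and 7.11, 6.68 and 6.74 in CDd14, beside 6.37, 5.86 and 6.56 in NPd7 and 6.42, 6.54 and 7.38 in NPd14. All 3 CDd14 pools were above the CDd7 pools, and LAMB1 rose 2.60-fold (limma adjusted p = 0.0231). EFEMP1 (fibulin-3) read 13.78, 13.38 and 13.92 in CDd7 and 14.47, 14.56 and 14.53 in CDd14, beside 14.29, 13.82 and 14.44 in NPd7 and 14.50, 13.98 and 14.56 in NPd14. CDd7 was slightly lower than CDd14 throughout, and EFEMP1 rose 1.77-fold (adjusted p = 0.0208). FBN1 rose 3.67-fold at an adjusted p of 0.0498, with overlapping pools.

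The 2 genes that fell were COL4A4 and P4HA1. COL4A4 fell by 3.54 ± 0.49 on the log2 scale, back to a level under the filter (limma adjusted p = 0.00268), and its difference shares the CDd7 pools with the outcome comparison at day 7. P4HA1 read 10.12, 10.44 and 10.38 in CDd14 and 10.16, 10.37 and 10.51 in NPd14 and fell 1.49-fold from CDd7 (adjusted p = 0.0325). COL4A1 was lower in all CDd14 pools than in any CDd7 pool, by -1.50 ± 0.53, and PLOD2 was higher by 1.22 ± 0.41, and neither passed (adjusted p = 0.0628 and 0.0547). COL21A1 passed in each of the 12 fits that left out 1 array. COL4A4 did so too, but it was kept only because it was high in CDd7. Its fall to CDd14 was thus partly fixed by the filter, and these fits are no support for it. The count of 7 became 2 without CDd7 pool 2, 3 without CDd14 pool 3, 4 without CDd14 pool 1 or pool 2, and 1 with the 3' to 5' covariate. CLDN5 fell 22.2-fold (limma adjusted p = 0.00176) between these groups, to 1.66 to 2.05 in CDd14, so the size of its fall depends on the floor. The epithelial markers CDH1 and KRT7 and the leukocyte marker LCK rose. The part of these 4 markers in the result was not tested.

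Between the days in no pregnancy, 0 of the 32 genes passed (limma, smallest adjusted p = 0.0518, 11 at an unadjusted p under 0.05), where 0.133% of all genes did. NPd14 was lower without overlap for 5 genes (15.3% of all genes) and higher for 2 (7.33%). COL6A1 came nearest, at -3.23 ± 0.56 (limma adjusted p = 0.0518), and it passed without NPd7 pool 2 or without CDd7 pool 2 (adjusted p = 0.0492 and 0.0435). It was kept only through NPd7 and lay under 4 in NPd14. Its fall was thus partly fixed by the filter, its size depends on the floor, and these fits are no support for it. LUM differed by -2.24 (0.146), COL1A2 by -2.29 (0.161), COL3A1 by -1.91 (0.168), PCOLCE by -1.85 (0.141) and SPARC by -2.43 (0.193). Without NPd14 pool 2, whose SPARC, DCN, LUM and OGN values were near those of NPd7, 5 genes passed: SPARC, LUM, DCN and COL6A1 lower at day 14 and COL21A1 higher. Since that pool stands apart in these very genes, the count without it is no independent support for a day difference.

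**Figure D5:**
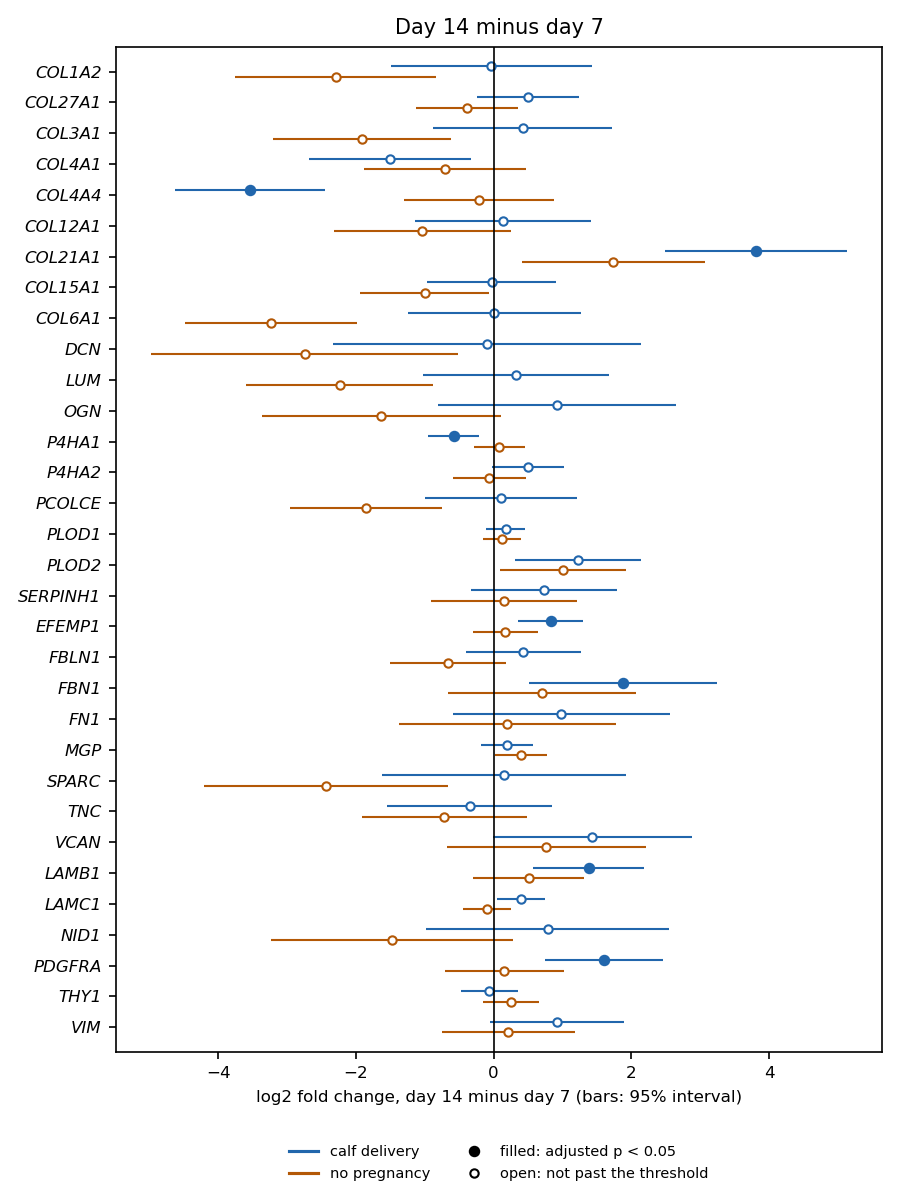
Log2 difference between day 14 and day 7 for the 32 kept genes in calf delivery (blue) and no pregnancy (orange), with 95% intervals from limma and filled points for an adjusted p under 0.05. In calf delivery the fibril-forming and proteoglycan points lie between -0.09 and 0.92 and 7 others are filled, while in no pregnancy these points lie left of 0 and 0 are filled.

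Whether the day effect differed between the outcomes was tested as an interaction. None of the 32 genes passed (0% of all genes did, limma), and 11 had an unadjusted p under 0.05. The smallest adjusted p was that of COL4A4, at 0.230, with a difference of -3.32 ± 0.69. COL6A1 followed at 3.24 ± 0.80 (limma adjusted p = 0.244). COL4A4 was kept only through CDd7 and COL6A1 only through NPd7, so the filter partly fixed both differences and their place in this order. Next were LUM at 2.57 ± 0.86 (0.290), COL3A1 at 2.33 ± 0.82 (0.303), P4HA1 at -0.66 ± 0.24 (0.305) and PCOLCE at 1.95 ± 0.70 (0.305). Since none passed, the gap between the outcomes at day 7 is not shown to differ from that at day 14 for any of the 32 genes.

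In the order of the 4 group means, CDd7 was the lowest group for 21 of the 32 genes (65.6%, beside 36.6% of all genes) and NPd7 the highest for 16 (50%, beside 23.8%). COL1A2 stood at 11.12 ± 1.13 in NPd7, 8.83 ± 0.88 in NPd14, 7.92 ± 0.75 in CDd7 and 7.89 ± 0.78 in CDd14, and the pools of the last 3 groups overlapped. COL3A1 had the same order of the first 2 groups, with 12.12 ± 0.84 and 10.21 ± 0.94, then 9.60 ± 0.73 in CDd14 and 9.18 ± 0.63 in CDd7. SPARC, at 8.59 ± 0.39 in NPd7, 6.15 ± 2.04 in NPd14, 4.78 ± 0.47 in CDd14 and 4.62 ± 0.47 in CDd7, showed the wide NPd14 spread set by pool 2. PDGFRA had a different order, at 8.0 ± 0.56 in NPd14, 7.84 ± 0.46 in NPd7, 7.70 ± 0.26 in CDd14 and 6.09 ± 0.71 in CDd7, so that CDd7 stood apart from the other groups.

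Within groups the genes followed common pools. NPd7 pool 3 was the highest of its group for 22 of the 32 genes (68.8%, beside 31.2% of all genes), and CDd7 pool 3 for 23 (71.9%, beside 35.6%). CDd7 pool 2 was the lowest for 21 (65.6%, beside 33.9%). In NPd14, pool 2 was the highest for 18 (56.2%, beside 43.1%) and pool 1 the lowest for 19 (59.4%, beside 18.6%). The genes are therefore not independent of each other, and counts over them do not stand for replicates.

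Of a wider set of collagen maturation genes, 11 of 15 were kept. At day 7 FKBP10, a prolyl isomerase of the endoplasmic reticulum that helps to fold collagen, fell 2.54-fold (limma adjusted p = 0.0392), and 10 did not pass. Between the days in calf delivery, where 24.1% of all genes were called, 1 of the 11 rose and 1 fell. The prolyl 3-hydroxylase P3H1 rose 4.71-fold (adjusted p = 0.0131) and MIA3, which exports procollagen from the endoplasmic reticulum, fell 1.98-fold (0.0074). Of 8 kept matrix receptors of 9, 0 passed at day 7 (limma, 4 at an unadjusted p under 0.05), while in calf delivery 2 rose and 1 fell to day 14, beside the same 24.1% of all genes. The syndecan SDC2 rose 3.78-fold (0.00176), the integrin chain ITGAV rose 1.95-fold (0.0167) and the collagen-binding ITGA2 fell 4.58-fold (0.0395). Of 11 kept TGF-beta ligands, receptors and targets of 14, a pathway that drives matrix production in fibroblasts, 0 passed at day 7 (3 at an unadjusted p under 0.05). From day 7 to day 14 in calf delivery 2 rose and 2 fell (9.87% and 14.2% of all genes did), among them THBS1, an activator of the latent ligand, which fell 5.44-fold (0.00256), and the signal carriers SMAD3, which rose 2.38-fold (0.0192), and SMAD4, which fell 1.44-fold (0.0292). In the day 14, no pregnancy and interaction comparisons 0 genes of these 3 lists passed (limma, 1 or 2 of each list at an unadjusted p under 0.05).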

How the data were processed

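Endometrial RNA pools were measured on 12 Affymetrix bovine arrays, 3 in each of 4 groups. The values deposited by the authors are on the log2 scale and come from GCRMA, per the submitters' processing notes, which name GCRMA and limma without versions. GCRMA subtracts background, normalizes between arrays and pulls dim probe sets toward a floor, so folds from dim levels depend on that floor. Per the labels, each array holds RNA of a pool. Where the 2 numbers in a CDd14 title disagreed, the one after "rep" was used.

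Of 24128 probe sets 112 controls were left out, and 13449 of 24016 (56.0%) exceeded 4 on at least 3 arrays and were kept. Of these, 8239 carry 1 gene symbol in the platform annotation, 59 several and 5151 none. All 56 symbols of the genes described matched RefSeq (assembly ARS-UCD2.0) by gene identifier. Sequences were not used here, and coordinates served only to find which of these genes are neighbours.

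Comparisons used limma 3.58.1 in R 4.3.3, with 4 group means over the 12 arrays (8 residual and 2.13 prior degrees of freedom), default empirical Bayes moderation, Benjamini-Hochberg adjustment over the 13449 probe sets and an adjusted p under 0.05, two-sided. Fold changes are differences of group means on the log2 scale, and 95% intervals are from the moderated fit. The scripts were tested on simulated data. The number of arrays limits the precision.

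The genes and lists were chosen with earlier results of these data known. Any of the 56 genes may be named. Array values are given for COL1A2, COL3A1, COL4A1, SPARC, LUM, DCN, FN1 and VIM and, per comparison, for up to 6 genes past the threshold with the smallest p. Other lists give up to 3. Alternatives were no filter, a filter at 6, quantile normalization, limma's trend and robust options, the replicate number as a block, averaging a gene's probe sets, the arrays of each comparison alone, the 3' to 5' difference as a covariate, and leaving out each array.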

Additional observations from a re-analysis of the deposited data

How the results depend on the processing

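Called genes among the 32 were recounted under each alternative. At day 7 the 13 calls became 2 without a filter on dim probe sets, 1 with the day 7 arrays alone and 0 with the 3' to 5' covariate (limma, smallest adjusted p = 0.236). In calf delivery the 7 calls between days became 1 with that covariate. Leaving out each array in turn gave 0 to 16 calls at day 7, 0 at day 14 (2 to 4 at an unadjusted p under 0.05), 2 to 9 between days in calf delivery, 0 to 5 between days in no pregnancy and 0 in the interaction. Among values past the threshold in either fit, 1 changed direction, that of PLOD1 between days in calf delivery. It was -1.46 as the mean of its probe sets against 0.18, since its other kept probe set fell (-3.09, limma adjusted p = 0.00264).

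Same-numbered pools deviated together at correlations of -0.26 to 0.62 (median 0.16, 18 pairs). Other pools did so at -0.54 to 0.33 (median -0.07, 36 pairs). The ranges overlap, so these values do not settle whether the numbers pair the samples. With the number as a replicate block, 15 of the 32 genes passed at day 7 and 9 between days in calf delivery, and 0 in each of the other comparisons. The share of all genes called with that block is not given, so these counts are not a result particular to the 32.

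Over single genes, 2949 recomputed values stayed on their side of the threshold, and those not past it moved by less than the spread. A further 145 no longer passed, 22 newly passed and 26 moved by more than the spread. Direction was compared only for values past the threshold in either fit. With 3 pools a group, and with levels under 4 set by the background correction, differences within the intervals given, and those between dim levels, were not resolved.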

Other observations

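COL4A3, the partner chain of COL4A4 in basement membranes, did not pass the filter and was looked at after its values were seen. It read 5.74, 6.28 and 3.15 in the CDd7 pools and at most 2.85 on each of the other 9 arrays (log2). In RefSeq (assembly ARS-UCD2.0) it lies beside COL4A4 with 0 protein-coding genes between them. COL4A4 was lowest in the same CDd7 pool, pool 3, at 5.53. With 2 arrays above 4, no test was made.

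LUM and DCN are also neighbours in that assembly, and in both NPd14 pool 2 was the high pool of its group (7.59 and 8.64). This is not particular to neighbours, since that pool was the highest for 18 of the 32 genes (43.1% of all genes), SPARC among them. COL3A1 neighbours COL5A2, which exceeded 4 only in NPd7 pool 3, at 4.86, the pool in which COL3A1 was highest (13.06). NPd7 pool 3 was the highest of its group for 22 of the 32 genes (31.2% of all genes). COL6A1 neighbours COL6A2, which did not pass the filter.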
